A study of Homo sapiens with 4 samples.

Results

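The mitochondrial genes encoded on the light strand are MT-ND6, the single protein gene of that strand, and the tRNA genes MT-TQ, MT-TA, MT-TN, MT-TC, MT-TY, MT-TS1, MT-TE and MT-TP. They were taken by name from the deposited count table, and all 9 were found among its 59385 features. GENCODE release 29 (GRCh38) places exactly these 9 of the 37 mitochondrial genes on the minus strand. RNA came from C4-2, a prostate cancer cell line descended from LNCaP that grows without androgen. The cells were kept for 3 days in RPMI medium alone (control) or in RPMI with 50 mM β-hydroxybutyrate (BHB), a ketone body. Both groups grew in RPMI with fetal bovine serum and antibiotics, and each held 2 libraries of total RNA made with a stranded kit. C4-2 is a single cell line, and the labels do not say whether the replicates were separate cultures, so p-values measure only how far these libraries differ, and that spread may be technical.

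Both strands of the mitochondrial genome are transcribed into long RNAs that run through many genes, and the tRNAs are cut out to free the messages between them. The light-strand transcript is antisense to most heavy-strand genes over much of its length, and a helicase and ribonuclease pair, SUPV3L1 and PNPT1, is known to degrade this noncoding RNA. MT-ND6 encodes a membrane subunit of complex I, the first enzyme of the respiratory chain. The heavy-strand RNA opposite MT-ND6 is known to stay attached to the MT-ND5 message as its untranslated end, and that opposite MT-TS1 stays attached to the MT-CO1 message. The strand setting of the counting is not given in the sources used here. If reads were assigned to the opposite strand, counts under these 9 names would come from heavy-strand RNA. Counts under heavy-strand names would then come from light-strand RNA. The values, shares and ratios below are therefore of counts listed under a name, for both strands.

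All 9 genes have a single exon and the same length in the table as in release 29. MT-ND6 lies at chrM:14149-14673 on the minus strand and has 175 codons, from ATG to the mitochondrial stop codon AGG. The start of its coding sequence (chrM:14584-14673, minus strand) is shown with every G in capitals, because the richness in G is what sets light-strand RNAs apart in composition.
MT-ND6: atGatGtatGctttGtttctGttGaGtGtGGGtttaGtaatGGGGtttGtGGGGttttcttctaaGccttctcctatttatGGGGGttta

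These 90 bases hold 27 G and 9 C. Over the whole gene, MT-ND6 is 35.6% G and 7.0% C. All 9 light-strand genes have more G than C, against 1 of the 14 heavy-strand tRNA genes and none of the 12 heavy-strand protein genes.

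The 8 tRNA genes are 66 to 73 bases long, and 5 of them are shown with the anticodon in capitals: the 4 with the most counts, and MT-TE, which has the single negative fold change. MT-TS1 reads UCN serine codons and lies at chrM:7446-7514, MT-TY carries tyrosine (chrM:5826-5891), MT-TP proline (chrM:15956-16023), MT-TQ glutamine (chrM:4329-4400) and MT-TE glutamate (chrM:14674-14742), all on the minus strand.
MT-TS1: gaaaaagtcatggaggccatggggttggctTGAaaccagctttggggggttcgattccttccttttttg
MT-TY: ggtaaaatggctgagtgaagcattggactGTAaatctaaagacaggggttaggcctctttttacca
MT-TP: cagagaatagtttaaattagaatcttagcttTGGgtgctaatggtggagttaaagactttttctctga
MT-TQ: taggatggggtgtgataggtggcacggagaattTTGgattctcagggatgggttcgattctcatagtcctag
MT-TE: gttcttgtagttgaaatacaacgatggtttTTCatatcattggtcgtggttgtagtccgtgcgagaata

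The other 3 tRNA genes sit together with MT-TY between MT-ND2 and MT-CO1. They are MT-TA for alanine (chrM:5587-5655), MT-TN for asparagine (chrM:5657-5729) and MT-TC for cysteine (chrM:5761-5826), on the minus strand as well.

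Library totals ran from 2233711 to 2565080 counts. The control libraries differed from each other more than the BHB libraries did, with a chi-square of 12.6 per degree of freedom against 2.44, both above sampling noise. Fold changes were therefore also computed without each control in turn. Names of prostate epithelium markers had counts. KLK3, which encodes prostate-specific antigen, had 448 and 97 counts in control replicates 1 and 2, against 154 and 191 in the BHB libraries, and the keratin gene KRT8 had 9221 to 12028 counts per library. The fibroblast genes COL1A2 and DCN, the endothelial gene CDH5 and the leukocyte gene PTPRC had 0 counts in every library. For counts under these names, that allows up to 1.17 to 1.34 CPM (counts scaled to a common library total). If reads were assigned to the opposite strand, this limit would not bound the messages of these genes, so it cannot exclude other cell types.

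Counts per kilobase of gene spread widely among the 9 genes. MT-TS1 stood highest with a mean of 63630 counts per kilobase (38190 and 59550 in control replicates 1 and 2, 71350 and 85430 in BHB replicates 1 and 2). MT-ND6 followed with a mean of 23190 per kilobase, MT-TY with 18700, MT-TP with 11070, MT-TQ with 2097 and MT-TE with 1210. MT-TC and MT-TN had means of 413 and 397 per kilobase, and MT-TA had 21.7. The ranges over the 4 libraries overlapped for the neighbours MT-ND6 and MT-TY and for MT-TC and MT-TN. All other neighbours in this order had separate ranges. A read needs only to overlap such a short gene to be counted, so a density per kilobase runs high for a gene shorter than a read, and the read length is not given in the sources used here.

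Heavy-strand genes had far fewer counts for their length. Their 12 protein genes had means between 223 and 3452 counts per kilobase, with MT-ND5, a complex I subunit gene, at the top. MT-ND6 had 28.9 and 22.5 times the median density of these 12 genes in control replicates 1 and 2, and 21.2 and 22.1 times with BHB. The contrast was larger among tRNA genes. All 8 light-strand tRNA genes had counts, while 9 of the 14 heavy-strand tRNA genes had 0 in every library and no heavy-strand tRNA gene exceeded 13 counts in any library. Summed over genes, the light-strand tRNA genes had 4654 and 6258 counts in the control libraries, against 7097 and 8670 in the BHB libraries. The heavy-strand tRNA genes had 13 and 8 in controls and 30 and 31 with BHB.

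**Figure D1:**
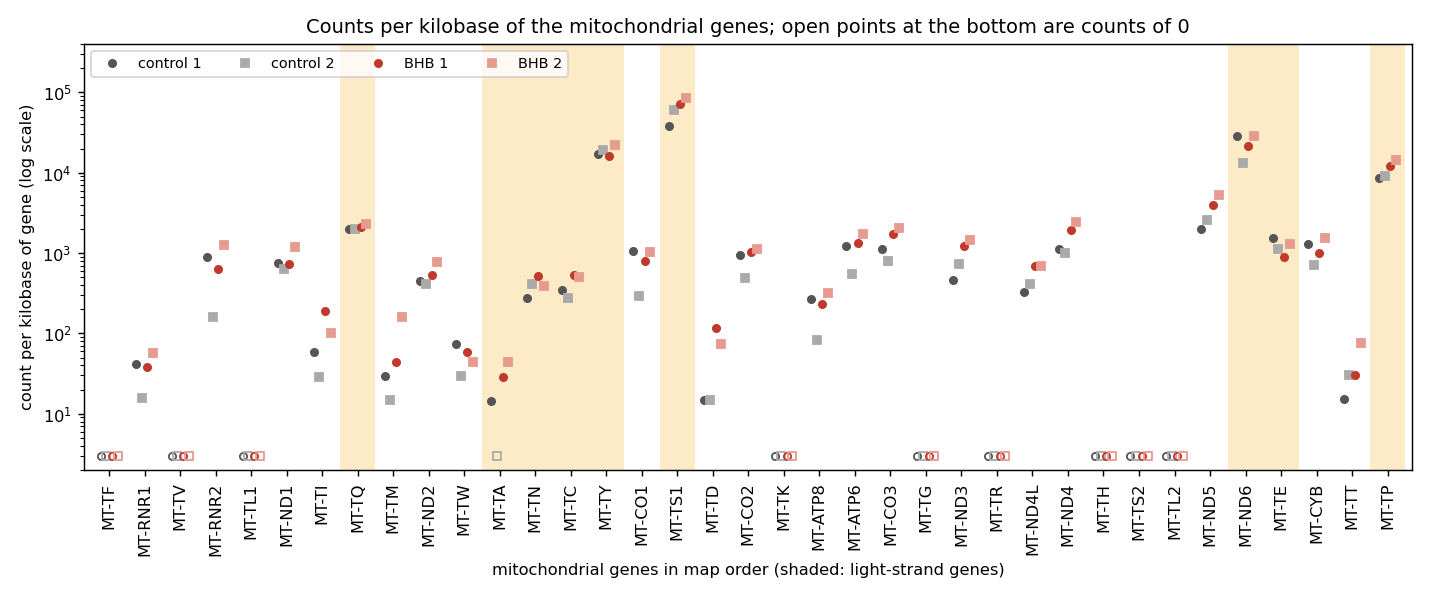
Counts per kilobase (log axis) of the 37 mitochondrial genes in map order, 1 point per library, with light-strand genes shaded and counts of 0 drawn as open points at the bottom. MT-TS1, MT-ND6, MT-TY and MT-TP stand above every heavy-strand gene, and MT-TA reaches no more than 3 counts.

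The densest light-strand genes lie at particular places on the map. By coordinate, MT-TS1 lies directly after the end of MT-CO1 and MT-ND6 directly after the end of MT-ND5. No base lies between in either case. MT-TY lies 12 bases before the start of MT-CO1. MT-TE, on the other side of MT-ND6, lies 4 bases before MT-CYB and had a mean of 83.5 counts. The 3 light-strand tRNA genes whose nearest light-strand gene is 1186 bases away or farther, MT-TS1, MT-TP and MT-TQ, had 63630, 11070 and 2097 counts per kilobase. Of the other 5, which have a light-strand gene within 6 bases or overlap one, 4 had 1210 or fewer, and MT-TY is the exception. All 14 heavy-strand tRNA genes have a heavy-strand gene within 6 bases. How a read over 2 genes was counted is not given in the sources used here, and its part in these levels was not tested.

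Nuclear copies of mitochondrial DNA can share reads with the genes they came from. Words of 50 bases from the 8 light-strand tRNA genes occurred in no nuclear transcript of release 29. Only annotated transcripts were searched, so copies in the nuclear DNA between them would have been missed. For MT-ND6, 17.9% of its 476 words occurred in nuclear transcripts, all of them in the pseudogene MTND6P4 (chromosome 5, 134924123 to 134924644). Some of these words also occurred in MTND6P22 (20 words) and MTND6P3 (5 words), which had 0 counts in every library. MTND6P4 had 4 and 4 counts in the control libraries, against 3 and 13 in the BHB libraries, and was the single feature with counts among 28 named as copies of MT-ND6. A different rule for reads with several matches could move counts between the copies, and that rule is not given in the sources used here.

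The study compared BHB with control. None of the light-strand genes passed the edgeR test, and 7 of the 8 tested had a positive log2 fold change, as did 4384 of all 9295 features tested. Without control replicate 1, 4 of the 8 were positive and 4 negative. With all libraries the median over the 8 was 0.39, against −0.03 over all features tested. MT-TA was too low to test. Across the table edgeR called 0 features (0%), and an unadjusted p under 0.05 was reached by 2.26% of features and by none of the light-strand genes. DESeq2 and limma-voom called 0 as well. Before adjustment, 144 of 22442 features were under 0.05 in DESeq2 and 238 of 9295 in limma-voom. Of the light-strand genes 0 and 2 were among these. In 3 of the 8 tested genes, MT-TS1, MT-TP and MT-TC, both BHB libraries lay above both controls, and in none did both lie below. Over all features tested, 15.1% lay above and 14% below in this way, and 3 of 8 is a count on few genes.

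In control replicates 1 and 2 the count of MT-ND6 was 15152 and 7019, and in BHB replicates 1 and 2 it was 11312 and 15217. After TMM scaling, which corrects library size for composition, this was 5461 and 3577 CPM in controls and 4987 and 6845 CPM with BHB. The groups overlapped, since BHB replicate 1 lay below control replicate 1. The means were 4519 ± 1332 and 5916 ± 1314 CPM (SD, n = 2), which gave 0.39 as the log2 fold change (SE 0.29). It failed edgeR's quasi-likelihood test (adjusted p = 1.0). The call rested on which control was used. Without control replicate 1 the log2 fold change was 0.71 (SE 0.06, edgeR adjusted p = 5.0e-28), in a fit that calls 5.84% of all features higher. Without control replicate 2 it was 0.15 (adjusted p = 0.060), and over all alternatives tried the adjusted p of MT-ND6 ran from 5.0e-28 to 1.0. A fit with 1 control assumes that this control varies like the BHB libraries, while the 2 controls were 0.61 apart on the log2 scale.

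**Figure D2:**
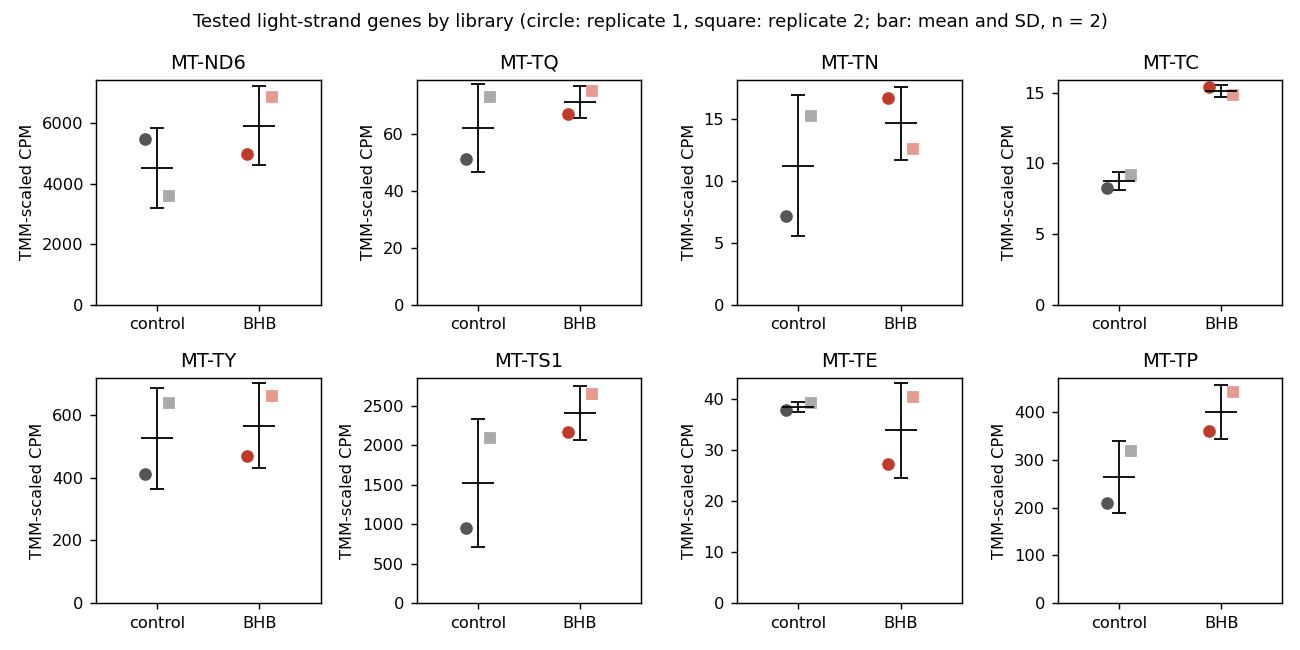
TMM-scaled CPM of the 8 tested light-strand genes, with circles for replicate 1, squares for replicate 2, and bars for mean and SD (n = 2). Both BHB libraries lie above both controls for MT-TC, MT-TS1 and MT-TP, while MT-ND6, at 5461 and 3577 CPM in controls and 4987 and 6845 CPM with BHB, overlaps.

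MT-TS1 had 2635 and 4109 counts in the control libraries, against 4923 and 5895 in the BHB libraries, or 950 and 2094 CPM against 2170 and 2652 CPM. The groups did not overlap, yet control replicate 2 lay close under BHB replicate 1. The log2 fold change was 0.66 (SE 0.37, edgeR adjusted p = 1.0), and it was 0.19 without control replicate 1 and 1.38 without control replicate 2.

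MT-TP had 584 and 625 counts in the control libraries, against 819 and 982 in the BHB libraries, or 211 and 319 CPM against 361 and 442 CPM. Both BHB libraries were higher than both controls. Its log2 fold change of 0.60 (SE 0.28) had the lowest unadjusted edgeR p of the 8 tested genes, 0.059, and did not pass edgeR's adjustment over all features. It was 0.32 without control replicate 1 and 0.97 without control replicate 2, where it was called.

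MT-TC, a gene of few reads, had 23 and 18 counts in the control libraries, against 35 and 33 in the BHB libraries. In CPM this was 8.73 ± 0.626 in controls and 15.1 ± 0.415 with BHB (SD, n = 2), and the groups did not overlap. The log2 fold change of 0.79 was the highest of the 8 tested, with an SE of 0.50 at this depth.

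MT-TY had 1144 and 1256 counts in the control libraries, against 1066 and 1472 in the BHB libraries, and its groups overlapped. The log2 fold change was 0.11 (SE 0.30). It was −0.19 without control replicate 1, −0.17 without BHB replicate 2, and 0.50 without control replicate 2, where it was called. MT-TQ had 142 and 143 counts in the control libraries, against 152 and 167 in the BHB libraries, a log2 fold change of 0.20 (SE 0.30). MT-TN had 20 and 30 counts in the control libraries, against 38 and 28 in the BHB libraries, a log2 fold change of 0.40 (SE 0.55). The groups of MT-TQ and MT-TN overlapped too, and both changes turned negative without control replicate 1, at −0.048 and −0.069. Without control replicate 2 they were 0.51 and 1.06.

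MT-TE was the gene with the lowest fold change. It had 105 and 77 counts in the control libraries, against 62 and 90 in the BHB libraries, a log2 fold change of −0.18 (SE 0.35), with both controls, at 37.8 and 39.2 CPM, between the BHB libraries at 27.3 and 40.5 CPM. The sign turned without BHB replicate 1, at 0.089, and the value was −0.49 without BHB replicate 2. MT-TA had 1 and 0 counts in the control libraries, against 2 and 3 in the BHB libraries, too few for a difference to be detectable.

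Leaving out a control changed which genes were called. Without control replicate 2, 3 of the 8 genes were called higher by edgeR: MT-TS1, MT-TP and MT-TY, in a fit that calls 9.43% of all features higher. Without control replicate 1, MT-ND6 alone was called. No gene was called in both fits, and none was called without BHB replicate 1 or 2.

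On TMM-scaled values the 2 controls set MT-ND6 apart from the light-strand tRNA genes. Between control replicates 1 and 2, MT-ND6 was higher in the first by 0.61 on the log2 CPM scale. All 7 tested tRNA genes went the other way, from −0.05 for MT-TE to −1.14 for MT-TS1. The raw counts of MT-TE (105 and 77) and MT-TC (23 and 18) were higher in control replicate 1. The sign of these 2 genes therefore depends on the scaling. The count of MT-ND6 was 5.75 times that of MT-TS1 in control replicate 1 and 1.71 times in control replicate 2, with 2.30 and 2.58 times in BHB replicates 1 and 2. MT-ND6 held 76.5% of light-strand counts in control replicate 1 and 52.9% in control replicate 2, and 61.5% and 63.7% with BHB. On this axis both BHB libraries lay between the controls.

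Heavy-strand genes also differed between the controls in both directions. The ribosomal RNA MT-RNR2 and MT-CO1, a cytochrome c oxidase subunit gene, were higher in control replicate 1 by 1.99 and 1.37 on the log2 scale, while the complex I subunit genes MT-ND3 and MT-ND5 had −1.16 and −0.84. The ratio of MT-ND6 to its map neighbour MT-ND5 was 4.16 in control replicate 1, 1.52 in control replicate 2, and 1.59 and 1.58 with BHB. For MT-TS1 and its neighbour MT-CO1 the ratio was 1.61 and 9.13 in controls and 3.996 and 3.696 with BHB. Neither ratio separated the groups (exact permutation test, two-sided, p = 1.0 for both).

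**Figure D3:**
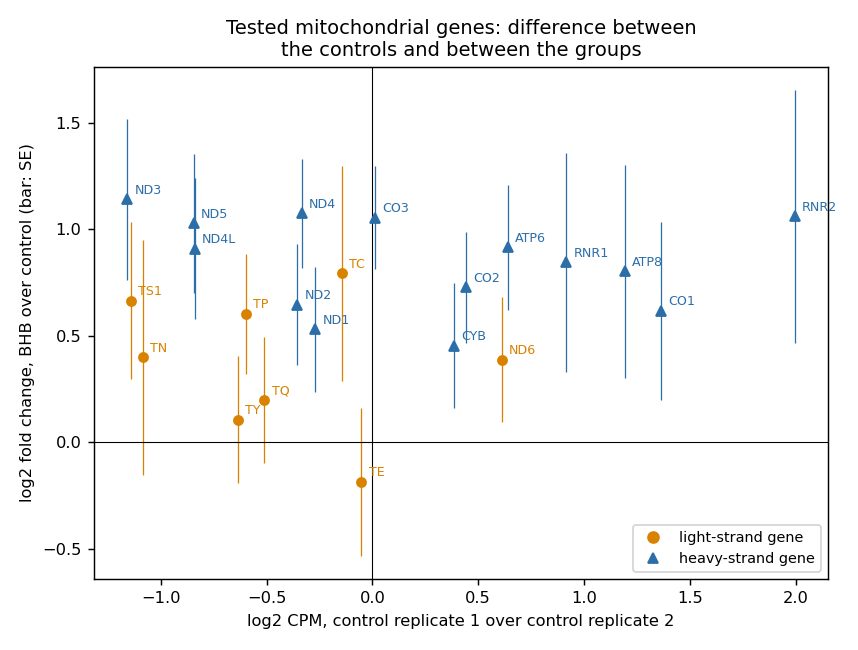
For each tested mitochondrial gene, the log2 CPM difference between the controls (x axis) and the log2 fold change of BHB over control with its SE (y axis), with circles for light-strand and triangles for heavy-strand genes. MT-ND6 is the light-strand gene on the right of 0 at 0.61, and MT-TE is the gene below 0 on the y axis at −0.18. The controls enter both axes, so no relation is read from the plot.

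The genes whose levels followed MT-ND6 most closely were sought over the 4 libraries among 2556 other features with a mean of at least 50 CPM. Likeness was the root mean square distance between log2 CPM values centred on each gene's mean. The nearest were MED1, a Mediator subunit gene, at 0.10, the chromatin remodeller gene CHD3 at 0.10, VIM-AS1 at 0.10, MT-CYB, the cytochrome b gene next to MT-TE, at 0.11, and PSIP1 at 0.12. With 4 libraries and many features, near patterns are common. Of the other light-strand genes, MT-TQ, MT-TP, MT-TY and MT-TS1 reached this level, and they ranked 665, 933, 1153 and 2449 of the 2556. MT-TE, MT-TC, MT-TN and MT-TA lay below it and were not compared.

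Within the mitochondrial counts the light-strand genes took a smaller share with BHB. They held 59.2% (95% Wilson interval 58.7 to 59.7) and 56.3% (55.7 to 56.9) of mitochondrial counts in control replicates 1 and 2, and 50.3% (49.8 to 50.9) and 49.2% (48.8 to 49.7) in BHB replicates 1 and 2. The groups did not overlap. The means were 57.8 ± 2.05% and 49.8 ± 0.791% (SD, n = 2), a difference of −7.98 percentage points. An exact permutation test, two-sided, gave p = 0.333, the smallest that 2 libraries against 2 allow. The difference was −6.27 points with MT-ND5, the most abundant heavy-strand gene, left out of the total, and −1.59 points for the 8 tRNA genes alone, whose groups overlapped.

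As a share of the whole library, the light-strand genes did not fall with BHB. They made up 0.772% and 0.593% of all counts in controls and 0.810% and 1.07% with BHB. The 12 heavy-strand protein genes summed to 12182 and 10029 counts in the control libraries, against 17105 and 22571 in the BHB libraries. Their log2 fold changes were all positive, with a median of 0.86. In 9 of the 12 both BHB libraries lay above both controls, against 15.1% of all features tested. An unadjusted edgeR p under 0.05 was reached by 8 of the 12, against 2.26% of all features tested. None passed the edgeR test after adjustment. When libraries were scaled to their mitochondrial counts instead of all counts, 6 of the 8 light-strand genes had a negative fold change while 8 of the 12 heavy-strand protein genes had a positive one, and the median of all features moved to −0.65. The log2 fold change of MT-ND6 was then −0.27 (SE 0.41) and that of MT-TY −0.56 (SE 0.41), while MT-TS1 and MT-TC stayed positive at 0.018 and 0.17.

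**Figure D4:**
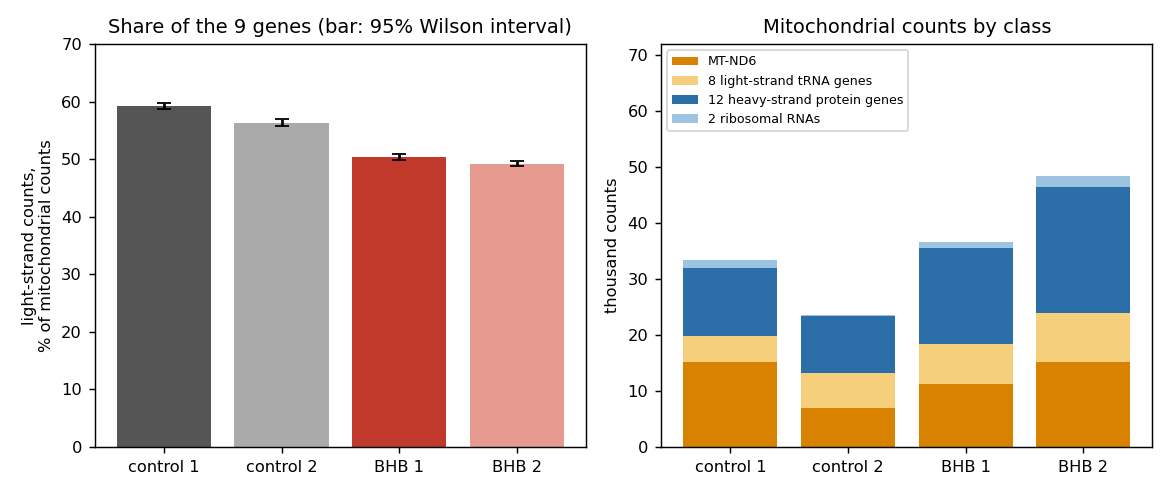
Left, the 9 light-strand genes as a percentage of mitochondrial counts per library with 95% Wilson intervals: 59.2% and 56.3% in controls, 50.3% and 49.2% with BHB. Right, mitochondrial counts by class, where the 12 heavy-strand protein genes sum to 12182 and 10029 in controls and 17105 and 22571 with BHB.

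A pair of further ratios that do not depend on scaling were compared. The log2 ratio of MT-ND6 density to the median of the 12 heavy-strand protein genes was 4.85 and 4.49 in controls and 4.41 and 4.46 with BHB. The difference was −0.24. It was −0.057 without control replicate 1 and −0.42 without control replicate 2. Taken against summed counts over summed length it was −0.48, against the neighbours MT-ND5 and MT-CYB −0.48 with overlapping groups, and in plain counts −0.38. The log2 ratio of summed light-strand to heavy-strand tRNA counts was 8.43 and 9.52 in controls and 7.86 and 8.11 with BHB, a difference of −0.99 that rests on 8 to 31 heavy-strand counts per library. It was −1.54 without control replicate 1 and −0.45 without control replicate 2. Each gave p = 0.333 by the exact permutation test, two-sided. Over the 6 shares and ratios compared, Benjamini-Hochberg adjusted values ran from 0.67 to 1.0.

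Nuclear genes that make, cut, degrade or use these RNAs gave no call with all 4 libraries, and many of their values turned with the control used. For mitochondrial transcription and DNA maintenance, 9 of 13 genes were tested, 0 were called in either direction, and the median log2 fold change was −0.27, but 0.21 without control replicate 1. The genes with the most counts were POLG, the mitochondrial DNA polymerase, at −0.28 (SE 0.28), the helicase gene TWNK at −0.27 (SE 0.27) and MTERF4, a factor of mitochondrial ribosome assembly, at 0.43 (SE 0.29). POLG was −0.59 without control replicate 1 and 0.12 without control replicate 2. POLRMT, the mitochondrial RNA polymerase, had 62 and 21 counts in the control libraries, against 24 and 32 in the BHB libraries.

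For RNA processing, 4 of 12 genes were tested, 0 were called, and the median was 0.003, but 0.62 without control replicate 1. PRORP, the nuclease subunit that cuts tRNA 5′ ends, had −0.05 (SE 0.31), TRNT1, which adds the CCA end, −0.13 (SE 0.31) and HSD17B10, of the same RNase P complex as PRORP, 0.54 (SE 0.77). The counts of HSD17B10 in controls were 61 and 6, and its value was 2.58 without control replicate 1 and −0.20 without control replicate 2. PRORP was −0.33 and 0.32 in these fits, and TRNT1 −0.37 and 0.17. For RNA stability and decay, 5 of 8 were tested, 0 were called, and the median was −0.17, but 1.24 without control replicate 1. SLIRP, which binds heavy-strand messages, had −0.17 (SE 0.30), GRSF1, an RNA granule protein gene, 0.15 (SE 0.68) and LRPPRC, the partner of SLIRP, −0.98 (SE 0.91). All of these turned with the control left out. The counts of LRPPRC in controls were 71 and 6, and its value was 1.24 without control replicate 1 and −1.75 without control replicate 2. GRSF1 was 1.61 and −0.49 in these fits, and SLIRP −0.50 and 0.26. SUPV3L1 was too low to test, and PNPT1 had −0.15 (SE 0.81), with 1.62 without control replicate 1 and −0.84 without control replicate 2.

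Of the enzymes that charge the light-strand tRNAs, 6 of 10 genes were tested, 0 were called, and the median was −0.32. It kept its sign without control replicate 1 (−0.32) and without control replicate 2 (−0.29). Both BHB libraries lay below both controls in 4 of these 6 and above both in 0. Over all features tested, 14% lay below and 15.1% above in this way, and 6 genes are few. GATC, a subunit of the amidotransferase that makes glutaminyl-tRNA, had 4059 to 4504 counts and a log2 fold change of 0.04 (SE 0.26), with −0.18 without control replicate 1 and 0.33 without control replicate 2. EARS2, the glutamate synthetase, had −0.38 (SE 0.50), and CARS2, the cysteine synthetase, −0.40 (SE 0.52). Of the nuclear complex I subunits, the partners of the MT-ND6 protein, 23 of 37 were tested, 0 were called, and the median was −0.39, but 0.29 without control replicate 1. Both BHB libraries lay below both controls in 7 of these 23 and above both in 2. NDUFB2 had 0.24 (SE 0.26), NDUFC1 −0.41 (SE 0.26) and NDUFS7 −0.66 (SE 0.27). In the fit without control replicate 1, which calls 6.38% of all features lower, POLG, SLIRP and NDUFS7 were called lower and HSD17B10 higher. In the fit without control replicate 2, which calls 7.21% lower, LRPPRC was called lower and GATC higher.

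A coding gene lay on the other strand for 5 of the 9 tested transcription genes, 2 of the 4 processing genes, 1 of the 5 stability genes, 5 of the 6 synthetase genes and 10 of the 23 complex I genes. Among the genes named, these were POLG, TWNK, MTERF4, PRORP, TRNT1, SLIRP, GATC, EARS2, CARS2, NDUFB2 and NDUFC1. Of the features nearest to MT-ND6, CHD3, VIM-AS1 and PSIP1 also had a coding gene on the other strand. Counts under such names cannot be told apart from those of the opposite gene while the strand setting is unknown. The unknown setting limits names without an opposite coding gene too, such as LRPPRC, GRSF1, HSD17B10, PNPT1, NDUFS7 and MED1. If reads were assigned to the opposite strand, counts under those names would not be of the named genes' messages. In a bulk library, fewer cells of a type and less RNA per cell cannot be told apart.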

How the data were processed

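The deposited data are raw counts, not normalized by the authors, for 2 control and 2 BHB libraries. They cover 59385 features, whose lengths the same table lists. HISAT2 2.2.1, featureCounts 2.0.3, edgeR and limma are named in the submitters' processing notes with the builds GRCh38 and hg38. For the annotation release and for reads that match several places, the sources used here give nothing. Shares carry 95% Wilson intervals, and a count of 0 allows 3 counts of the total. These limits reflect counting error alone.

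All features were fitted together with edgeR 4.0.16 in R 4.3.3 (filterByExpr, TMM, robust quasi-likelihood F-test, Benjamini-Hochberg FDR under 0.05), and SE were taken from the F statistic. The common dispersion was 0.113. Ratios were compared by exact permutation over the 4 libraries. DESeq2 1.42.0, limma-voom 3.58.1, other scalings and filters, a replicate block and leaving out each library were alternatives. The groups' replicate numbers come from the labels, which do not say that they mark shared cultures.

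The 9 genes and the gene lists were chosen with earlier results of these data known. Named genes were the 9 genes, their map neighbours, the 5 features nearest to MT-ND6, its copies with counts, and the 3 tested members of each list with the most CPM. POLRMT, SUPV3L1 and PNPT1, the heavy-strand genes MT-RNR2, MT-ND3 and MT-ND2, and the ratios of MT-ND6 to MT-ND5, MT-TS1 to MT-CO1 and MT-ND6 to MT-TS1 were added after values were seen. Sequences and coordinates are from GENCODE release 29 (GRCh38). Some cell type markers are not reported here.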

Additional observations from a re-analysis of the deposited data

How the results depend on the processing

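Leaving out 1 library at a time gave log2 fold changes of 0.15 to 0.71 for MT-ND6, −0.048 to 0.51 for MT-TQ, −0.069 to 1.06 for MT-TN, −0.19 to 0.50 for MT-TY, 0.19 to 1.38 for MT-TS1, −0.49 to 0.089 for MT-TE, 0.32 to 0.97 for MT-TP and 0.71 to 0.90 for MT-TC. The median over the tested light-strand tRNA genes was 0.40 and ran from −0.048 without control replicate 1 to 0.90 without control replicate 2. The number of light-strand genes called ran from 0 to 3, and that of all features from 0 to 1826, with 1217 without control replicate 1. The light-strand share of mitochondrial counts stayed lower with BHB, by −9.43 to −6.53 points, as did the log2 ratio of MT-ND6 to heavy-strand protein genes (−0.42 to −0.057) and that of the tRNA sums (−1.54 to −0.45).

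Scaling to mitochondrial counts turned the sign of MT-ND6 (−0.27), MT-TQ (−0.44), MT-TN (−0.20), MT-TY (−0.56), MT-TP (−0.043) and the tRNA median (−0.20), and moved the median of all features to −0.65. Under 3 other scalings of all counts, 2 other filters, DESeq2 and limma-voom, the 8 tested genes kept the direction they had in the full fit and none was called. With the replicate number as a block, MT-ND6 had a log2 fold change of 0.40, no feature was called, and no direction of these genes turned. The replicate deviations of the 2 groups had a correlation of −0.020 over 9295 features, so the numbers were not taken to pair the libraries. Leaving MT-ND5 out of the mitochondrial total, and leaving out each control for the nuclear gene lists, were chosen after seeing the data.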
